A study of Mus musculus with 4 samples.

Results

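Transcripts of 44 cornified envelope genes were examined in mouse mammary cells with and without a conditional knockout of ΔNp63, out of 54393 gene identifiers in the deposited table. The members are the small proline-rich, late cornified envelope and other genes of the cornified envelope. They were chosen by function and found in the table by matching its identifiers to gene symbols in GENCODE M21. There were 2 libraries of ΔNp63 cKO and 2 of WT cells, with 1 library of each genotype at 10 days and 1 at 5 weeks after tamoxifen, so each genotype had n = 2. Tamoxifen (1.5 mg/ml, route and dose per animal not given) was given at puberty, at 4 weeks of age, to induce the deletion. The labels describe all 4 libraries, WT included, as coming from mice with an inducible keratin 14 Cre (iK14-Cre) and floxed ΔNp63 alleles (DNp63 f/f), and do not say which of these the WT animals carried. The keratin 14 driver limits deletion to cells that use that promoter, which in the mammary gland are mainly basal cells. Sorting removed leukocytes, endothelial cells and red cells by their CD45, CD31 and Ter119 antigens, and 100000 of the cells left went into each library. Nothing in the labels says that libraries came from separate animals. With 1 library per genotype and time, a gene's spread in the fit is how far its cKO to WT ratio differs between times. It is moderated by the spread of other genes, and may be technical as well as biological. P-values thus rest on these 4 libraries alone and do not measure the spread between animals. Ages of 5 and 35 weeks stand in the growth protocol, and since 35 weeks cannot be matched to the times after tamoxifen, no age was used.

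The cornified envelope is a sheet of cross-linked protein that replaces the plasma membrane when a keratinocyte of a stratified epithelium dies at the surface. Envoplakin and periplakin form the first scaffold under the membrane, transglutaminases join proteins to it through isopeptide bonds, and involucrin, small proline-rich proteins, loricrin and late cornified envelope proteins are added. Most of these proteins are encoded side by side in the epidermal differentiation complex. Mammary epithelium is bilayered and does not normally cornify, while p63 is required for stratified epithelia and for the basal layer of the gland.

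Total counts were 31714181 and 34230566 in the cKO libraries at 10 days and 5 weeks, against 33363255 and 79122250 in the WT libraries. At 5 weeks the WT library was thus the deepest of the 4. Luminal keratins were abundant in every library, with Krt8 at between 2398 and 3429 CPM (counts scaled to library size by TMM). The cells were not epithelium alone, since 8 fibroblast marker genes summed to 38414 and 60348 CPM in cKO and 39388 and 31593 CPM in WT at 10 days and 5 weeks. In such mixed samples fewer cells of a type and less RNA per cell cannot be told apart. Trp63, the gene that encodes p63, stood at 12.8 CPM in cKO and 46.8 CPM in WT at 10 days. At 5 weeks it stood at 25.5 CPM in cKO and 160.5 CPM in WT. Over both times together its log2 fold change was -2.26 (SE 0.267, adjusted p = 0.107, edgeR's quasi-likelihood test). Both cKO libraries lay below both WT libraries, but the difference did not pass the threshold of 0.05. The counts cover all Trp63 isoforms, so ΔNp63 was not measured alone.

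On mouse chromosome 3 lie 33 of the members, between 90526856 and 93399442 of GRCm38 (GENCODE M21), and the other 11 lie elsewhere. The 13 Sprr genes occupy 285 kb of it (92215920 to 92500493). Upstream sequences of 40 members were found in a RefSeq table of the GRCm38.p6 build. The 250 bases before the start are shown for 4 Sprr2 genes that share the marked motifs but not their levels, for Sprr1a, the small proline-rich gene with the highest level per transcript length, and for Krtdap, the member with the smallest adjusted p. The windows are chr3:92338890-92339139 for Sprr2d, chr3:92364937-92365186 for Sprr2f, chr3:92385435-92385684 for Sprr2h and chr3:92407741-92407990 for Sprr2i, all on the plus strand. They are chr3:92485882-92486131 on the minus strand for Sprr1a and chr7:30787655-30787904 on the plus strand for Krtdap. Each is written 5′ to 3′ along the gene's strand, and capitals mark TGANTCA (the AP-1 site, N being any base), ATTTGCAT (the octamer bound by POU factors) and TATAAA (the TATA box), on either strand.
Sprr2d: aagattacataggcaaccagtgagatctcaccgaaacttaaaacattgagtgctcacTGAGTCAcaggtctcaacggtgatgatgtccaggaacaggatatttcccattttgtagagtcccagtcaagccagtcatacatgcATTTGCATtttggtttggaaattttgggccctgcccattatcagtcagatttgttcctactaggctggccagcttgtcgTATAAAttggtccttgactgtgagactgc
Sprr2f: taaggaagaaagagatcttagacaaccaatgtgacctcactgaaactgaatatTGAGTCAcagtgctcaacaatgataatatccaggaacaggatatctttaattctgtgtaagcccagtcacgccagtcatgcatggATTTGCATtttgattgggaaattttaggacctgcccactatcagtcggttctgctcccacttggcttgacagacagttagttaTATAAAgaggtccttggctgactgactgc
Sprr2h: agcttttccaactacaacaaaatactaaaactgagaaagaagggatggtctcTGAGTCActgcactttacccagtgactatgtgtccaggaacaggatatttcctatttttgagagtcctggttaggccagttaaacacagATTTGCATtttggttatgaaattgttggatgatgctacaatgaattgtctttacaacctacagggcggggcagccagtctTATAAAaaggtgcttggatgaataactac
Sprr2i: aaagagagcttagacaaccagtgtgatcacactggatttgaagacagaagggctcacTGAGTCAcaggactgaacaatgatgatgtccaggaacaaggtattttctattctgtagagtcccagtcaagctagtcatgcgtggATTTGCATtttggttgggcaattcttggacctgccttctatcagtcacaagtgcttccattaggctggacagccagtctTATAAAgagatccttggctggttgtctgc
Sprr1a: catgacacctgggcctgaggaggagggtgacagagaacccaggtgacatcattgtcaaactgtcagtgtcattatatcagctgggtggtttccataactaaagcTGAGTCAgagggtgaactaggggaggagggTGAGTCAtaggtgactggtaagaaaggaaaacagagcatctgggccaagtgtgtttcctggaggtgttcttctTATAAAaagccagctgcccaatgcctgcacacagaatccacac
Krtdap: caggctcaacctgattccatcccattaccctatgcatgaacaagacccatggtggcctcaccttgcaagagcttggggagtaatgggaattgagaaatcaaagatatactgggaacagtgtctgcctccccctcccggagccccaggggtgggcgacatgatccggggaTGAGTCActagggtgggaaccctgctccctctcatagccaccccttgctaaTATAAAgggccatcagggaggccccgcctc

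The 4 Sprr2 windows printed hold the same 3 motifs in the same order, with an AP-1 match, then an octamer, then a TATA box near the start. TGANTCA was found in 17 of the 40 members with a window, against 7.82% of all 27025 genes in the table. TATAAA was found in 21 of 40, against 14.3% of all genes. The octamer was found in 6 of 40 (Sprr2d, Sprr2e, Sprr2f, Sprr2h, Sprr2i and Sprr2k), against 1.81%. The spacing CNNGNNNNNNCNNG, a loose form of the p53-family site, was found in 18 of 40 members, against 66.03% of all genes. AACNGGTT, a grainyhead-like site, was found in 2 of 40 (2.00% of all genes), and GAAANNGAAA, an interferon-stimulated element, in 1 (3.46%). Matches of different motifs may overlap in a window, and a match is a string of letters and not a bound site. None of TGANTCA, ATTTGCAT and TATAAA was found in the windows of Sprr2a2 and Sprr2a3, whose RefSeq starts differ from their GENCODE starts. Between upstream windows of Sprr2 genes, identity was 89.3% for Sprr2d and Sprr2e, 80.6% for Sprr2h and Sprr2k and 79.9% for Sprr2a2 and Sprr2a3. It was between 48.6% and 52.8% for Sprr2a2 or Sprr2a3 against the others.

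Together the 44 members summed to 422 CPM in cKO and 519.9 CPM in WT at 10 days, and to 352 CPM in cKO and 1917 CPM in WT at 5 weeks. The WT library at 5 weeks stood apart from the other 3. The makeup of the sum also differed. Small proline-rich transcripts were 4.54% of it in cKO and 25.1% in WT at 10 days, and 11.6% in cKO and 51.5% in WT at 5 weeks. Plakins and transglutaminases made up 83.5% in cKO and 58.5% in WT at 10 days, and 67.0% in cKO and 25.9% in WT at 5 weeks. The scaffold and cross-linking genes were thus the larger share in cKO at both times, and the small proline-rich genes were the larger share in WT at 5 weeks alone of the 4 libraries. Per transcript length (TPM, which divides counts by exon length), the 3 highest members were Tgm1, Sprr1a and Ppl in cKO at 10 days and Sprr1a, Tgm1 and Sprr2a2 in WT at 10 days. At 5 weeks they were Sprr1a, Tgm1 and Ppl in cKO and Sprr1a, Sprr2a2 and Krtdap in WT.

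**Figure D1:**
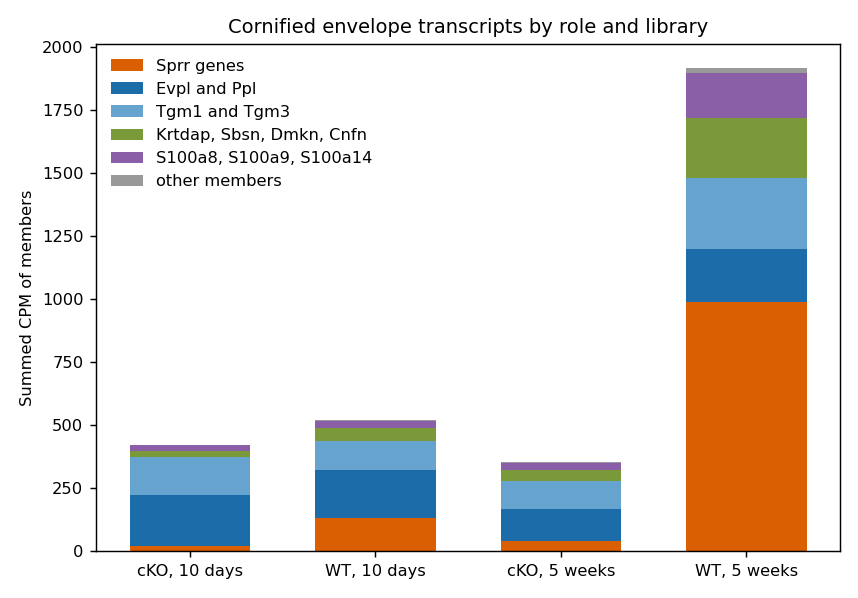
Summed CPM of the members in each library, stacked by role (small proline-rich genes at the base). The cKO bars reach 422 CPM at 10 days and 352 CPM at 5 weeks, against 519.9 and 1917 CPM for the WT bars, and the small proline-rich genes hold 51.5% of the last.

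Of the 44 members, 24 passed the filter on low counts. Of the 20 that did not, 8 had no count in any library and 12 had few. Of the 24, 6 (Sprr1b, Sprr2e, Sprr2g, Sprr2h, Lor and Ivl) reached the filter's level only in WT libraries, 5 also in 1 cKO library and 13 in both. For those 6 a difference was favoured by the filter itself, so counts over the 24 are given beside those over all genes tested and not as a test. By edgeR's quasi-likelihood test with a term for time, Sprr2a2 and Krtdap fell in cKO, 2 of 24 members against 0.0529% of the 18917 genes tested. No member rose in cKO, against 0.00529% of genes tested. At an unadjusted p under 0.05, 16 members were lower and 1 (S100a8) was higher, against 5.8% of genes in each direction. DESeq2 called 12 members lower (1.46% of genes) and 1, S100a9, higher (1.25%), and limma-voom 5 lower (0.132%) and 0 higher (0.0211%). In 15 of 24 members both cKO libraries lay below both WT libraries (23.3% of genes tested), and in 2, S100a8 and S100a9, both lay above (22.6%).

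The median log2 fold change of the 24 members was -2.51, against -0.01 for all genes tested, with 22 members below 0. The median moved when 1 library was left out, in fits that had genotype as the only term and so lost the time term too. With all 4 libraries and no time term it was -2.70. It was -1.24 without the WT library at 5 weeks, -3.41 without the cKO library at 5 weeks, -3.42 without the WT library at 10 days and -2.02 without the cKO library at 10 days. Within 10 days the median log2 ratio of the members was -1.89 (all genes 0.00), also with the 4 members at 0 counts in cKO set at a 3-count floor. Within 5 weeks it was -2.73 (all genes -0.01). In cKO, 11 members were at least 4-fold lower within 10 days (2.34% of genes tested) and 13 within 5 weeks (2.0%), and 9 at both times (0.576%). Those 9 were Sprr1b, Sprr2a2, Sprr2a3, Sprr2f, Sprr2g, Sprr2h, Krtdap, Cnfn and Calm4. Of these, Sprr1b, Sprr2g and Sprr2h reached the filter's level only in WT libraries, so the filter favoured this difference. The medians over the 24 members also include the members that reached it only in WT. With 1 library per genotype at a time these ratios carry no test.

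**Figure D2:**
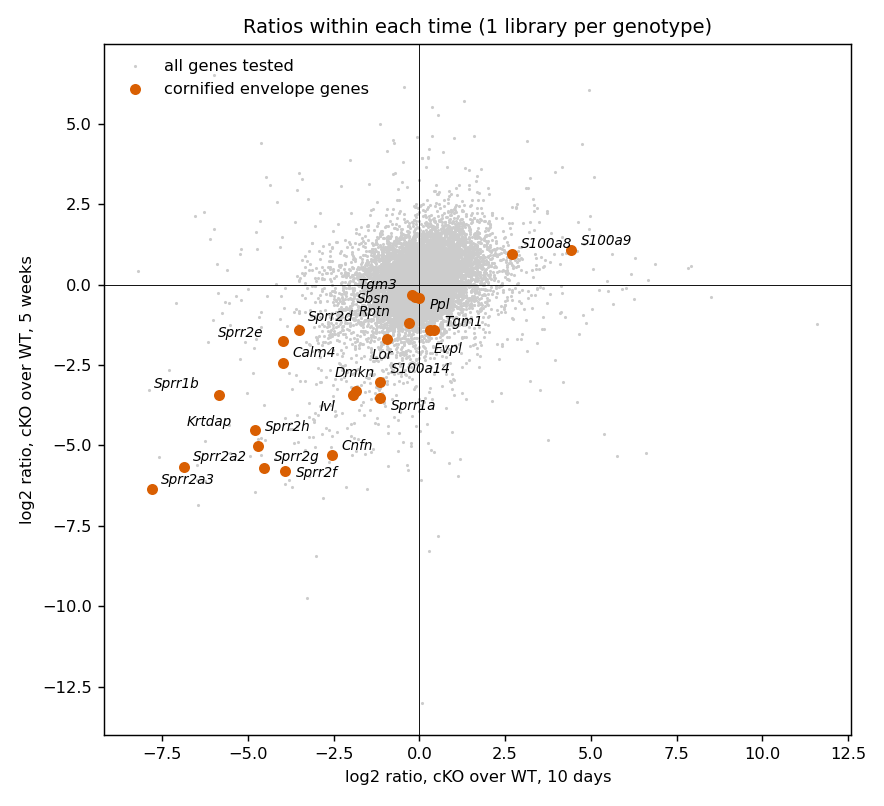
Log2 ratio of cKO to WT at 10 days (horizontal) and at 5 weeks (vertical), from CPM with a prior count of 2, for the 24 members tested (orange, labelled) over all genes tested (grey). Sprr2 genes and Krtdap lie at the lower left, Evpl and Tgm1 lie right of 0 and below it, and S100a8 and S100a9 lie at the upper right.

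Small proline-rich proteins are short cross-bridging substrates of transglutaminases, and as a sum the Sprr2 genes were far below WT. The 9 Sprr2 genes summed to 0.976 CPM in cKO and 87.9 CPM in WT at 10 days, and to 13.2 CPM in cKO and 667 CPM in WT at 5 weeks. Both cKO libraries lay below both WT libraries, by 90.1-fold at 10 days and 50.7-fold at 5 weeks, and Sprr2a2 held most of the sum. With each of the 7 tested Sprr2 genes counted alike, their median log2 ratio stood at -4.54 for 10 days and -5.67 for 5 weeks, while that of the sums was -6.49 and -5.66. Of these 7, Sprr2e, Sprr2g and Sprr2h reached the filter's level only in WT libraries, so the filter favoured low ratios for them. The 10-day median is the value of Sprr2g. The sums take in all 9 Sprr2 genes, tested or not. The basal keratin Krt5 moved with them, at 123 CPM in cKO and 1018 CPM in WT at 10 days and at 236 CPM in cKO and 7826 CPM in WT at 5 weeks, and its part in the result was not tested.

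Sprr2a2 (ENSMUSG00000068893.5, 92215920 to 92256724, plus strand) had 0.535 CPM in cKO and 67.1 CPM in WT at 10 days, and 9.19 CPM in cKO and 469 CPM in WT at 5 weeks. The genotypes did not overlap. It fell in cKO with a log2 fold change of -6.19 (SE 0.415, adjusted p = 0.048, edgeR's quasi-likelihood test). The fold was 125 at 10 days (17 against 2312 counts, 95% interval 78.2 to 216) and 51.0 at 5 weeks (312 against 36019 counts, 45.6 to 57.2). Intervals here and below are exact, conditional on the summed count, and cover counting error only. The call was lost with DESeq2 size factors (adjusted p = 0.0727), with upper-quartile factors (adjusted p = 0.0976), without the time term (adjusted p = 0.414) and without any 1 of the 4 libraries. The adjusted p ran from 1.75e-78 to 0.741 over all alternatives, and with 1 library left out the log2 fold change ran from -8.97 to -3.78. Its exons share 97.8% of their 31-base words with other genes, mainly its neighbour Sprr2a1, so the counts of single Sprr2a copies depend on how reads were divided. The sum over Sprr2a1, Sprr2a2 and Sprr2a3 does not depend on how reads were divided among these 3, and it was 0.535 CPM in cKO and 77.2 CPM in WT at 10 days, and 10.7 CPM in cKO and 572 CPM in WT at 5 weeks.

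Sprr2a3 (92285417 to 92291405) had 0 counts in cKO and 10.0 CPM in WT at 10 days, and 1.15 CPM in cKO and 98.4 CPM in WT at 5 weeks. With the cKO library set at a floor of 3 counts it was 106-fold lower at 10 days, while the interval from its 0 counts starts at 86.0-fold. At 5 weeks Sprr2a3 was 85.7-fold lower in cKO (interval 62.6 to 121). The adjusted p was 0.107, and 73.6% of its 31-base words are shared. Sprr2f (92365187 to 92366442), of whose words 7.94% are shared, had 0.315 CPM in cKO and 5.43 CPM in WT at 10 days. At 5 weeks it had 1.33 CPM in cKO and 76.1 CPM in WT. It was lower in both cKO libraries than in either WT library, with a log2 fold change of -5.21 (SE 0.516, adjusted p = 0.107).

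Sprr2g (92373915 to 92375229), annotated in GENCODE as a polymorphic pseudogene, had 1 count in cKO and 60 in WT at 10 days, a ratio of 0.0181 (interval 0.000450 to 0.105). At 5 weeks it had 0.265 CPM in cKO and 16.1 CPM in WT. Its genotypes did not overlap, and its log2 fold change of -5.85 (SE 0.491) just missed the threshold (adjusted p = 0.0519). Of the 31-base words of Sprr2g, 3.07% are shared, so its reads are mostly its own.

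The remaining Sprr2 genes were low in every library. Sprr2d, Sprr2e, Sprr2h, Sprr2k and Sprr2i had 3, 0, 0, 0 and 0 counts in cKO and 53, 23, 39, 9 and 0 counts in WT at 10 days. At 5 weeks they had 30, 7, 3, 2 and 0 counts in cKO and 188, 61, 327, 44 and 1 counts in WT. Every one with more than 1 count in all was lower in cKO at both times. Sprr2h was 12.0-fold lower at 10 days at the 3-count floor (interval from 9.30-fold upward), and its ratio at 5 weeks was 0.0208 (interval 0.00426 to 0.0612). Sprr2d, whose upstream window is the closest to that of Sprr2e, differed least at 5 weeks, where it was 2.77-fold lower (interval 1.88 to 4.22). Sprr2i, with the same 3 motifs upstream, had 1 count in all 4 libraries together.

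Sprr1a, at 92483952 to 92485895 on the minus strand, encodes a cornifin that is also induced in injured tissues. It had 18.1 CPM in cKO and 39.9 CPM in WT at 10 days, and 27.7 CPM in cKO and 317 CPM in WT at 5 weeks. The cKO values lay below both WT values, but the distance at 10 days was 2.20-fold (interval 2.00 to 2.43) and that at 5 weeks 11.5-fold (10.8 to 12.3). The log2 fold change was -2.34 (SE 0.752, adjusted p = 0.424). In TPM, which accounts for length, Sprr1a stood at 70.8 in cKO and 158 in WT at 10 days, and at 108 in cKO and 1081 in WT at 5 weeks. In TPM it was the highest of the small proline-rich genes in both cKO libraries. No 31-base word of Sprr1a is shared with another gene.

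Its neighbour Sprr1b had 0 counts in cKO and 2.55 CPM in WT at 10 days, and 0.118 CPM in cKO and 1.72 CPM in WT at 5 weeks. At the 3-count floor it was 27.1-fold lower in cKO at 10 days (interval from 21.5-fold upward) and 14.6-fold lower at 5 weeks (interval 5.56 to 54.3). Sprr1b was the only Sprr gene of the 9 tested with a lower level at 5 weeks than at 10 days in WT. Sprr3, a gene of squamous epithelia such as oesophagus, had 1 and 0 counts in cKO and 6 and 5 counts in WT at 10 days and 5 weeks. Sprr4 had 0 and 0 counts in cKO and 0 and 2 in WT.

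**Figure D3:**
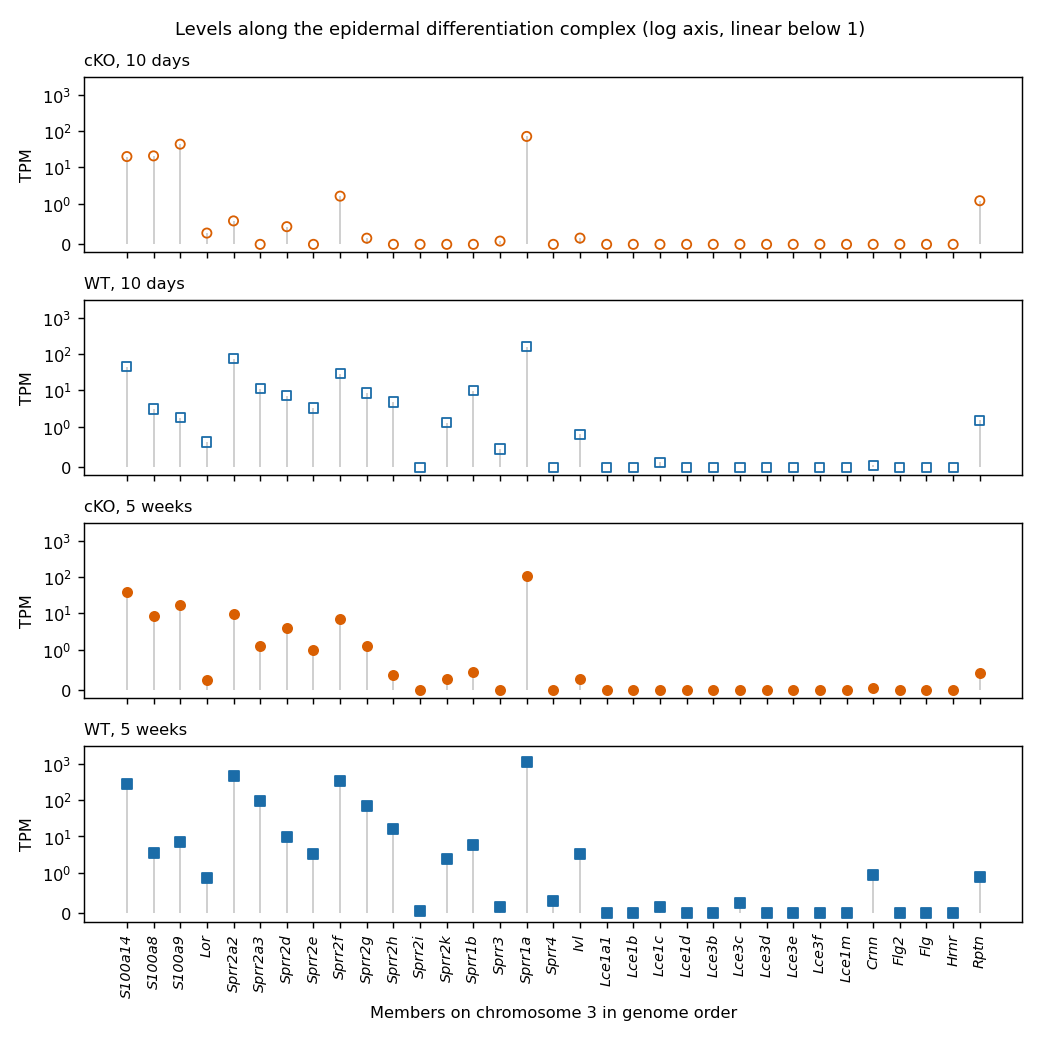
TPM of the 33 members on chromosome 3, in genome order, in each library (1 panel each, log axis that is linear below 1). Sprr1a is the highest point in every panel, at 70.8 TPM in cKO and 158 TPM in WT at 10 days and 108 TPM in cKO and 1081 TPM in WT at 5 weeks, while the 10 Lce genes lie at or near 0 throughout.

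The late genes of terminal differentiation were hardly detected. The 10 late cornified envelope (Lce) genes, which encode the last envelope proteins added in epidermis, had 0 counts in both cKO libraries, against 1 and 7 counts in WT at 10 days and 5 weeks. Of these, 8 had no count in any library, and at a floor of 3 counts the level of each is limited to at most 0.0944 CPM in any library. Filaggrin (Flg), the keratin-aggregating protein of the granular layer, had 0 and 0 counts in cKO and 1 and 4 counts in WT. Filaggrin 2 (Flg2) and hornerin (Hrnr) had 1 count each, both in cKO at 5 weeks. Cornulin (Crnn), a fused S100 protein of upper squamous layers, had 0 and 1 counts in cKO and 1 and 50 counts in WT, so it was seen mainly in the WT library at 5 weeks.

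Repetin (Rptn), the only fused S100 gene that passed the filter, had 1.61 CPM in cKO and 1.97 CPM in WT at 10 days, and 0.560 CPM in cKO and 1.34 CPM in WT at 5 weeks (adjusted p = 0.615). Its genotypes overlapped. Loricrin (Lor), the main envelope protein of mature epidermis by mass, had 5 and 5 counts in cKO and 12 and 44 counts in WT at 10 days and 5 weeks. Involucrin (Ivl), an early substrate laid along the membrane, had 3 and 6 counts in cKO and 17 and 180 counts in WT, or 0.0944 and 0.177 CPM in cKO and 0.494 and 2.34 CPM in WT. For both genes the cKO libraries lay below the WT libraries. The log2 fold change was -1.56 for Lor (SE 0.613, adjusted p = 0.423) and -3.17 for Ivl (SE 0.640, adjusted p = 0.236). The library with the most Sprr2 transcripts therefore still had Lor at 0.883 TPM and Ivl at 3.34 TPM, against 343 TPM for Sprr2f.

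Krtdap, which encodes a secreted keratinocyte differentiation-associated protein, lies on chromosome 7 (30787896 to 30791097, plus strand). It had 0.378 CPM in cKO and 11.7 CPM in WT at 10 days, and 4.04 CPM in cKO and 92.6 CPM in WT at 5 weeks. The genotypes were far apart at both times. It fell in cKO with a log2 fold change of -4.68 (SE 0.281, adjusted p = 0.0274, edgeR's quasi-likelihood test). The fold was 30.97 at 10 days (12 against 403 counts, interval 17.5 to 60.4) and 23.0 at 5 weeks (137 against 7120 counts, 19.4 to 27.4). Its call held with DESeq2 size factors, DESeq2 and limma-voom. It was lost with upper-quartile factors (adjusted p = 0.05005), without the time term (adjusted p = 0.427) and without any 1 library. The adjusted p ran from 3.62e-44 to 0.787 over all alternatives, and with 1 library left out the log2 fold change ran from -7.11 to -2.40. No 31-base word of Krtdap is shared with another gene.

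Sbsn and Dmkn, which encode the secreted proteins suprabasin and dermokine, lie beside Krtdap, and the 3 genes span 39.6 kb (30751471 to 30791097). Dmkn had 5.19 CPM in cKO and 18.7 CPM in WT at 10 days, and 9.93 CPM in cKO and 99.5 CPM in WT at 5 weeks. Its genotypes did not overlap (log2 fold change -2.60, SE 0.435, adjusted p = 0.220). Sbsn had 19.7 CPM in cKO and 21.7 CPM in WT at 10 days, and 30.9 CPM in cKO and 40.6 CPM in WT at 5 weeks. Its levels were close between genotypes and overlapped across times (log2 fold change -0.27, SE 0.220, adjusted p = 0.698), and 7.95% of its words are shared with the overlapping gene Tmem147os. In TPM at 5 weeks, Krtdap, Dmkn and Sbsn stood at 18.6, 14.2 and 26.8 in cKO and at 374, 125 and 30.7 in WT. Sbsn was thus the highest of the 3 in cKO and the lowest in WT. Cornifelin (Cnfn), another envelope protein, had 15 counts in cKO and 102 in WT at 10 days, and 1 count in cKO and 223 in WT at 5 weeks. Its ratio at 5 weeks was 0.0102 (interval 0.000256 to 0.0571), and its adjusted p was 0.307.

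The scaffold and cross-linking genes were, with Sbsn, the 5 tested members with the log2 fold changes smallest in size. Envoplakin (Evpl, chromosome 11, 116220559 to 116238077) had 53.4 CPM in cKO and 43.3 CPM in WT at 10 days, and 32.7 CPM in cKO and 86.3 CPM in WT at 5 weeks. It was thus higher in cKO at 10 days and lower in cKO at 5 weeks, and the genotypes overlapped (log2 fold change -0.55, SE 0.484, adjusted p = 0.730). Periplakin (Ppl, chromosome 16, 5086291 to 5132421) had 149 CPM in each genotype at 10 days, and 94.3 CPM in cKO and 125 CPM in WT at 5 weeks. Its log2 fold change was -0.21 (SE 0.214, adjusted p = 0.768), the smallest in size among the members tested.

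Transglutaminase 1 (Tgm1, chromosome 14, 55700009 to 55713926), the membrane-bound enzyme that builds the envelope, followed the pattern of Evpl. It had 150 CPM in cKO and 112 CPM in WT at 10 days, and 108 CPM in cKO and 283 CPM in WT at 5 weeks. Its genotypes overlapped (log2 fold change -0.49, SE 0.518, adjusted p = 0.780). At 5 weeks Tgm1 was 2.63-fold lower in cKO (interval 2.54 to 2.72) and Evpl 2.64-fold lower (2.48 to 2.82). Plakins and transglutaminase 1 are also made by epithelia that do not cornify. The soluble transglutaminase Tgm3 was rare, with 7 and 33 counts in cKO and 9 and 94 counts in WT at 10 days and 5 weeks (adjusted p = 0.867).

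**Figure D4:**
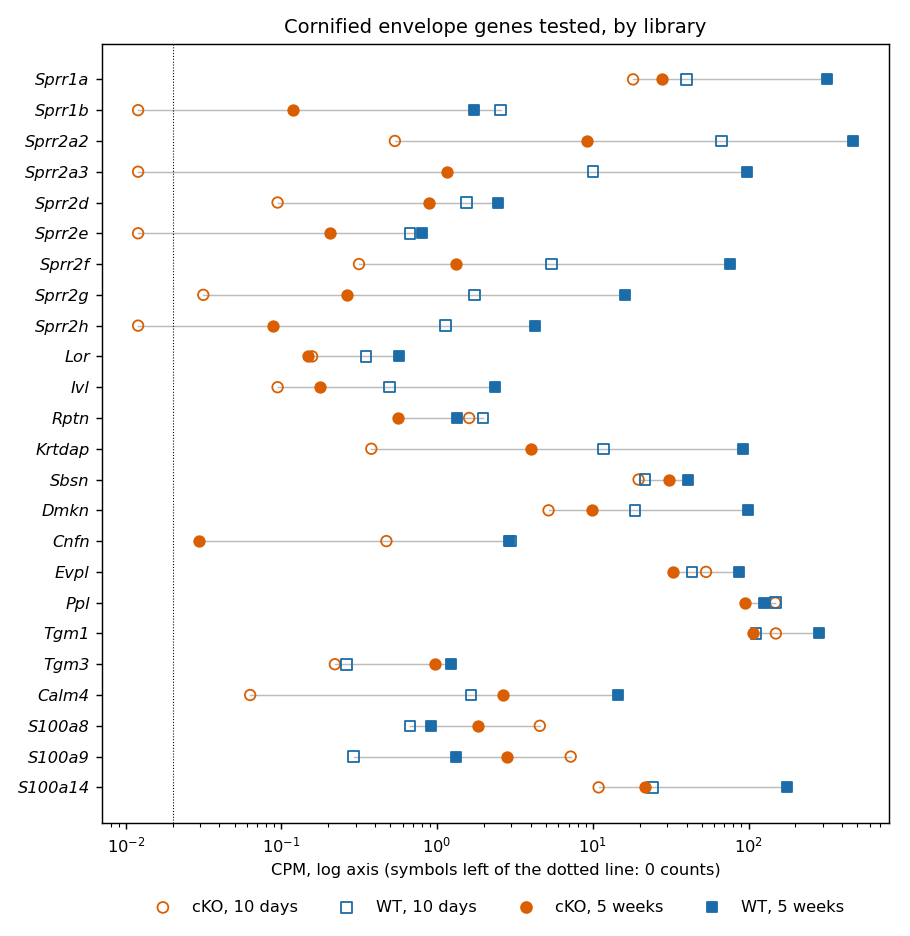
CPM of the 24 members tested in each library (log axis, 0 counts drawn left of the dotted line), cKO as orange circles and WT as blue squares, open at 10 days and filled at 5 weeks. Circles lie left of squares for all Sprr genes, Krtdap and Dmkn, mix with them for Sbsn, Evpl, Ppl and Tgm1, and lie right of them for S100a8 and S100a9.

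Calm4, a calcium-binding protein of the calmodulin family found in differentiating keratinocytes, had 2 counts in cKO and 57 in WT at 10 days (ratio 0.0380, interval 0.00450 to 0.144). At 5 weeks it had 2.65 CPM in cKO and 14.4 CPM in WT. The cKO value at 5 weeks lay above the WT value at 10 days, so the genotypes overlapped across times (log2 fold change -3.08, SE 0.582, adjusted p = 0.220). Caspase 14 (Casp14), the protease that processes filaggrin, had 0 and 6 counts in cKO and 9 and 71 counts in WT at 10 days and 5 weeks. Corneodesmosin (Cdsn), an adhesion protein of cornified cells, had 8 and 4 counts in cKO and 3 and 5 counts in WT.

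The S100 members split. S100a14, a calcium-binding protein of many epithelia, had 10.9 CPM in cKO and 24.1 CPM in WT at 10 days, and 21.5 CPM in cKO and 177 CPM in WT at 5 weeks. Both cKO values lay below both WT values, with a log2 fold change of -2.11 (SE 0.569, adjusted p = 0.372). S100a8 and S100a9, the subunits of calprotectin, are made by stressed keratinocytes and, most of all, by neutrophils. S100a8 had 4.56 CPM in cKO and 0.668 CPM in WT at 10 days, and 1.83 CPM in cKO and 0.911 CPM in WT at 5 weeks. S100a9 had 7.21 CPM in cKO and 0.290 CPM in WT at 10 days, and 2.83 CPM in cKO and 1.33 CPM in WT at 5 weeks. Both genes were highest in the cKO library at 10 days, and the genotypes did not overlap. The log2 fold change was 1.86 for S100a8 (SE 0.584, adjusted p = 0.358) and 2.67 for S100a9 (SE 1.05, adjusted p = 0.459), and neither passed. Other neutrophil markers moved with them: 11 such genes, leaving out Ltf, which mammary epithelium also makes, summed to 19.6 CPM in cKO and 3.05 CPM in WT at 10 days and to 6.92 CPM in cKO and 3.58 CPM in WT at 5 weeks. None of the 11 was at 0 in cKO, while 2 were at 0 in each WT library, namely Elane and Ly6g at 10 days and Elane and Chil3 at 5 weeks. Their part in the S100a8 and S100a9 result was not tested.

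Between the times, no member passed the test of 5 weeks against 10 days (edgeR's quasi-likelihood test, with 0.0634% of genes tested called). At an unadjusted p under 0.05, 12 members were higher at 5 weeks (3.09% of genes) and 0 were lower (2.27%). DESeq2 called 8 members higher (0.571% of genes) and limma-voom 1, Krtdap (0.0793%). The nearest to the threshold was Krtdap, with a log2 fold change of 3.14 (SE 0.267, adjusted p = 0.0523). The median log2 fold change over the 24 members was 1.64, against 0.03 for all genes tested. It mixes genotypes that differed in size. In cKO, 7 members were at least 4-fold higher at 5 weeks than at 10 days (1.4% of genes) and Cnfn alone was at least 4-fold lower (1.16%). The 7 were Sprr2a2, Sprr2a3, Sprr2d, Sprr2e, Sprr2g, Krtdap and Calm4. Of these, Sprr2a3, Sprr2d, Sprr2e, Sprr2g and Calm4 had only 0 to 3 counts in cKO at 10 days. Sprr2e and Sprr2g reached the filter's level only in WT libraries. Cnfn went from 15 counts to 1 in cKO. In WT, 12 members were at least 4-fold higher at 5 weeks (1.92%).

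Sprr2f was 4.21-fold higher at 5 weeks than at 10 days in cKO (interval 2.09 to 9.37) and 14.02-fold higher in WT (12.1 to 16.3). For Sprr2a2, the 5-week level was 17.2-fold the 10-day level in cKO (10.6 to 29.9) and 6.98-fold in WT (6.69 to 7.29). Krtdap was 10.7-fold higher at 5 weeks in cKO (5.92 to 21.2) and 7.92-fold in WT (7.16 to 8.78). Transcripts of both genes were thus above their 10-day level at 5 weeks in either genotype, and the cKO level at 5 weeks remained below the WT level at 10 days. Sprr1a was 1.53-fold higher in cKO (1.37 to 1.70) and 7.95-fold higher in WT (7.53 to 8.40). Tgm1 was at 0.719 of its 10-day level in cKO (0.688 to 0.750) against 2.53-fold in WT (2.45 to 2.62). Whether time acted differently in the genotypes was not tested, since 4 libraries leave no residual for an interaction.

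Set against Krt5, a measure chosen after the values were seen, the members did not scale alike. Per 1000 CPM of Krt5, Sprr2 genes stood at 7.93 CPM in cKO and 86.4 CPM in WT at 10 days, and at 55.8 CPM in cKO and 85.3 CPM in WT at 5 weeks. Krtdap stood at 3.07 in cKO and 11.5 in WT at 10 days, and at 17.1 in cKO and 11.8 in WT at 5 weeks. Both were below the WT ratio at 10 days, and at 5 weeks Krtdap was above it. Sprr1a stood at 147 in cKO and 39.2 in WT at 10 days, and at 117 in cKO and 40.6 in WT at 5 weeks. In WT, with 1 library at each time, these 3 ratios lay close together at 5 weeks and 10 days, as did that of S100a14 (22.6 at 5 weeks and 23.7 at 10 days). Others did not. In WT the ratio of Sbsn was 5.19 at 5 weeks and 21.3 at 10 days, that of Ppl 15.98 and 146, that of Tgm1 36.2 and 110, and that of Evpl 11.03 and 42.6 in the same order of times. That of Sprr2f was 9.72 at 5 weeks and 5.33 at 10 days. In cKO at 10 days and 5 weeks, S100a14 stood at 88.6 and 91.2, Sbsn at 160 and 131, and Ppl at 1208 and 400. Tgm1 stood at 1218 and 457 in cKO, and Evpl at 434 and 139. These genes were above their WT ratio at both times, as were Dmkn and S100a9. Sprr2a2, Sprr2a3, Sprr2f and Sprr2g were below it at both times. Calm4 was below it at 10 days and above it at 5 weeks.

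Other genes of the keratinocyte programme were read from the same fit. Of 12 suprabasal and squamous keratins tested, 2 fell in cKO and none rose, with a median log2 fold change of -3.27. Krt13, a keratin of squamous layers, and Krt6b, a keratin of stressed epithelia with a close paralog in Krt6a, were the genes that fell (adjusted p = 0.00998 each). Krt6b had 3.05 CPM in cKO and 142 CPM in WT at 10 days, and 5.66 CPM in cKO and 215 CPM in WT at 5 weeks. Krt10, the partner of Krt1 in cornifying layers, had 2.64 CPM in cKO and 87.5 CPM in WT at 10 days, and 30.5 CPM in cKO and 315 CPM in WT at 5 weeks (adjusted p = 0.205). Of 14 genes of cross-linking and desquamation tested, Spink5, an inhibitor of the kallikreins that shed cornified cells, fell (log2 fold change -5.95, SE 0.376, adjusted p = 0.0311), none rose, and the median was -1.50. It had 0.0944 CPM in cKO and 12.6 CPM in WT at 10 days, and 3.06 CPM in cKO and 151 CPM in WT at 5 weeks. Of 11 desmosome genes, the cadherin Dsg3 fell (log2 fold change -4.79, SE 0.227, adjusted p = 0.00998), none rose, and the median was -2.01. At an unadjusted p under 0.05, 8 keratins, 7 genes of cross-linking and desquamation and 8 desmosome genes were lower and none higher. Over all genes tested the share was 5.8% in each direction. DESeq2 called 7, 4 and 7 lower (1.46% of genes) and limma-voom 4, 1 and 1 (0.132%), and neither called any higher.

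No gene passed edgeR's test in 4 further lists. These were 4 other tested genes of the epidermal differentiation complex (median -0.83), 10 other S100 genes (0.02), 15 barrier lipid genes (-0.12) and 24 regulators of keratinocyte differentiation (-0.67). At an unadjusted p under 0.05, the numbers lower and higher were 1 and 0, 1 and 1, 2 and 1, and 13 and 2 in that order of lists. DESeq2 called 0 and 0, 0 and 0, 1 and 1, and 7 and 0, and limma-voom called none. Of the 24 regulators, 16 had a log2 fold change below 0 and 8 above. The 24 include Trp63, the gene targeted in cKO, whose lower level was built into the design. Klf4, which drives barrier formation in skin, was higher in cKO at both times, unlike most of the list. It had 1668 CPM in cKO and 1127 CPM in WT at 10 days, and 1638 CPM in cKO and 1355 CPM in WT at 5 weeks (adjusted p = 0.679). The barrier lipid gene with the highest mean level, Elovl1, a fatty acid elongase, had 68.7 CPM in cKO and 76.1 CPM in WT at 10 days, and 66.8 CPM in cKO and 85.4 CPM in WT at 5 weeks (adjusted p = 0.674).

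Markers of the cell types in the sort were read beside these. Of 14 basal markers, Krt15 fell (log2 fold change -4.03, SE 0.294, adjusted p = 0.0351) and none rose, with a median of -1.25. At an unadjusted p under 0.05, 10 of the 14 were lower and 0 higher, DESeq2 called 8 lower and limma-voom 1. The 14 include Trp63, the gene targeted in cKO, so its lower level was built into the design. Their sum was 2562 CPM in cKO and 6494 CPM in WT at 10 days, and 2802 CPM in cKO and 19300 CPM in WT at 5 weeks, and none was at 0 in any library. The 15 luminal markers had a median of 0.02 and sums between 8641 and 10860 CPM. Medians were 0.49 for 8 fibroblast, 2.21 for 10 neutrophil, 0.91 for 8 leukocyte and 0.41 for 11 skin appendage or skin-resident markers tested, and no gene of these 4 lists or of the luminal list passed edgeR's test. At an unadjusted p under 0.05, 0 luminal, 0 fibroblast, 0 neutrophil, 0 leukocyte and 1 skin marker were lower, and 2, 1, 5, 3 and 1 were higher. DESeq2 called 0, 1, 4, 2 and 0 higher and none lower, and limma-voom called none. The neutrophil list holds the members S100a8 and S100a9, so its median and counts partly repeat their values. The skin markers summed to 386 CPM in cKO and 240.4 CPM in WT at 10 days, and to 561 CPM in cKO and 327 CPM in WT at 5 weeks. Most of that sum was Cd34, which fibroblasts also express, and the other 19 genes summed to 55.2 CPM in cKO and 40.5 CPM in WT at 10 days, and to 40.9 CPM in cKO and 38.8 CPM in WT at 5 weeks. Of the listed genes, 6 were at 0 in each cKO library, all of hair or pigment but not all the same at the 2 times. In WT, 1 was at 0 at each time (Krt35 at 10 days and Krt33a at 5 weeks). The part of any of these lists in the results on the members was not tested.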

How the data were processed

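The data were 4 RNA-sequencing libraries of sorted mouse mammary cells. The authors deposited 1 table of estimated counts, which are whole numbers, for 54393 identifiers. It has a column for every library, and 0 columns belong to other samples. Per the submitters' processing notes, Salmon and the GRCm38 build were used, and neither a role nor a version is stated. The annotation and the use of strand are not given in the sources used here. Sprr2a2, Rptn and Sbsn overlap genes on the same strand and Tgm1 1 on the opposite strand, so their counts are uncertain. Symbols and positions come from GENCODE M21, and upstream sequences from RefSeq (GRCm38.p6). Salmon divides reads shared by similar transcripts with a model.

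A minimum count of 10 in filterByExpr left 18917 genes with 99.9% of counts. After TMM scaling, genotype and time were fitted together by the robust quasi-likelihood method of edgeR 4.0.16 in R 4.3.3, with 1 residual degree of freedom. The time term is the block, since each time holds 1 library of each genotype. Fold changes are cKO over WT and 5 weeks over 10 days. Adjustment was by Benjamini-Hochberg over all genes tested, at 0.05, and SE is the absolute log2 fold change over the square root of F. CPM uses TMM-scaled totals, TPM the summed exon length, and ratios within a time use log2 CPM with a prior count of 2. Intervals have a level of 95%, and floors are 3 counts. A chi-square test per degree of freedom gave 103 between the cKO libraries and 193 between the WT libraries, so in neither pair is 1 library a copy of the other. Pairs across genotypes were not compared in this way. Total counts ran from 31714181 to 79122250, at which 3 counts equal between 0.0390 and 0.0944 CPM. The fit was tested on simulated data.

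Members and lists were chosen with earlier results of these data known. Members of at least 5 CPM in 1 library were to be given in full, and others by counts. Genes outside the members were drawn from the lists, at most the 4 highest in mean CPM and those with an adjusted p under 0.05. Alternatives were DESeq2 size factors, upper-quartile factors, no filter, DESeq2 1.42.0, limma-voom (limma 3.58.1), only the tested term, and leaving out each library.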

Additional observations from a re-analysis of the deposited data

Results flagged for a closer look

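For Evpl and Tgm1 the cKO library lay on opposite sides of the WT library at the 2 times. The log2 ratio of cKO to WT for Evpl was 0.30 at 10 days and -1.40 at 5 weeks. For Tgm1 it was 0.42 at 10 days and -1.39 at 5 weeks. Each ratio rests on 1 library per genotype, and the difference between the times was not tested.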

How the results depend on the processing

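Between genotypes, the median log2 fold change of the members was negative under every alternative, and the number called moved widely. The main fit of edgeR called 11 genes and 2 members. DESeq2 size factors gave 5 genes and 1 member (Krtdap), upper-quartile factors 3 and 0, no filter 1235 and 19 (3.71% of genes tested), DESeq2 512 and 13 (2.71%), limma-voom 29 and 5 (0.153%), and the model without time 0 and 0. Leaving out 1 library, with genotype as the only term, gave 0 to 60 genes, 0 to 1 members (Sprr1a, without the WT library at 10 days) and medians of -3.42 to -1.24. Between times, edgeR called 12 genes and 0 members, no filter 638 and 9, DESeq2 192 and 8, limma-voom 39 and 1, and the model without genotype 1 and 0. Leaving out 1 library gave 0 to 18 genes and 0 members. The causes were not tested, beyond the loss of samples or terms that some alternatives bring.

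With 1 library left out, genotype log2 fold changes turned above 0 at the top of their ranges for Tgm3 (-1.79 to 1.18), Tgm1 (-1.14 to 0.20), Sbsn (-0.68 to 0.22) and Ppl (-0.55 to 0.094). Those for time turned below 0 for Sprr1a (-0.070 to 3.42), Sprr2a2 (-1.88 to 8.80), Sprr2a3 (-2.13 to 14.2), Sprr2f (-1.12 to 6.93), Sprr2g (-1.74 to 7.91), Krtdap (-0.58 to 6.99), Dmkn (-0.27 to 3.40), Tgm1 (-0.28 to 1.10), Evpl (-0.56 to 0.82) and S100a9 (-1.80 to 2.79). Without the WT library at 5 weeks, that fit sets 1 cKO library against both 10-day libraries. For S100a9, time was also -0.11 with limma-voom and -0.86 without the genotype term. The main fit pairs the libraries by time, and the model without time is the one without that block.

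The 4 libraries leave 1 residual degree of freedom, which limits precision. Members with few counts, such as Lor, Flg and the Lce genes, are limited by depth as well.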
